A study of Homo sapiens and Mus musculus with 81 samples.

Results

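The 5 genes described here act in lipoprotein uptake by liver cells, as receptors or as proteins that sort cargo or send receptors to be destroyed. They are MYLIP, LRP1, VLDLR, SCARB1 and SORT1, chosen by gene symbol with case ignored for mouse, and they are 5 of the 27562 distinct symbols measured on the 2 array types. Each gene was read from its brightest probe set, and every level below is the log2 of the deposited intensity. The LDL receptor itself was not analysed here.

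The series measured RNA on 1-colour arrays in 81 samples from 2 human liver tumour lines, HUH7 and PLC/PRF/5, 1 mouse liver tumour line, Hepa1-6, and mouse liver. The cells were transfected with 10 nM siRNA and collected at 6, 12, 24 and 48 h, or at 6, 12 and 48 h for PLC/PRF/5. HUH7 (32 arrays) and PLC/PRF/5 (24 arrays) each had 8 treatments, namely 4 siRNAs whose names refer to human APOB (APOB-Hs1 to APOB-Hs4), Apob-Mm1 and Apob-Mm2, whose names refer to the mouse gene, an siRNA against RAD18, and a mock treatment. Hepa1-6 (16 arrays) had mock and the human-named siRNAs other than APOB-Hs2, and 9 livers were taken 3 d after 3 mg/kg of APOB-Hs1, APOB-Hs3 or APOB-Hs4 in lipid nanoparticles, 3 per siRNA, with no untreated liver. The sources used here give neither strain, sex nor age of the mice, and each line is a single tumour line.

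In each cell line there was 1 array per treatment and time, so time points stand in for replicates when siRNAs are compared and treatments stand in for replicates when times are compared. The labels do not say that arrays came from separate cultures, so p-values measure only the spread between these arrays. The median intensity per array lay between 31.75 and 35.39 in the human arrays and between 19.73 and 22.55 in the mouse arrays. The siRNAs silenced their targets: against mock, the APOB level differed by -2.51 to -1.69 log2 units in HUH7, -3.27 to -2.54 in PLC/PRF/5 and -2.64 to -2.32 in Hepa1-6 with the siRNAs named for human APOB, and RAD18 by -1.98 and -3.25 in the human lines with its own siRNA. Liver-cell markers were checked in each system. HUH7 had ALB at 13.79, SERPINA1 at 13.46 and TTR at 12.50, but CPS1 at 6.43 and CYP2E1 at 5.29. PLC/PRF/5 had SERPINA1 at 13.64 and CPS1 at 12.59, but ALB at 7.43, TTR at 7.45 and CYP2E1 at 5.05. Hepa1-6 had Alb at 12.10 and Trf at 12.24, but Ttr at 3.09, Serpina1a at 2.59 and Cps1 at 3.00 were near the lowest intensities of the array, whereas all 10 markers were at 11.56 or above in liver.

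Liver cells clear cholesterol-rich particles by receptors that bind apolipoproteins, enter clathrin-coated pits, release their cargo in endosomes and return to the surface. MYLIP, also called IDOL, is a ubiquitin ligase that sends the LDL receptor and VLDLR to the lysosome, and its gene is switched on by the oxysterol-sensing nuclear receptors LXR when cell sterol is high. VLDLR binds triglyceride-rich particles. LRP1 is a large endocytic receptor that takes up apolipoprotein E-bearing remnants, SCARB1 (SR-BI) takes cholesteryl ester selectively from HDL, and SORT1 (sortilin) moves cargo, apolipoprotein B among it, between the Golgi, endosomes and the surface.

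MYLIP, SORT1 and VLDLR were the members that rose over time in HUH7, so the windows around their gene starts are shown. Of the 5 genes, 4 matched a RefSeq promoter window on GRCh38.p14, each 300 bases long, from 250 before to 50 after the start, and SCARB1 is named only. Printed 5′ to 3′ on the gene's strand, MYLIP lies at chr6:16128836-16129135 (plus strand), SORT1 at chr1:109397869-109398168 (minus strand) and VLDLR at chr9:2621537-2621836 (plus strand), and capitals mark the letters CCAAT or, where the match is on the opposite strand, ATTGG.
MYLIP: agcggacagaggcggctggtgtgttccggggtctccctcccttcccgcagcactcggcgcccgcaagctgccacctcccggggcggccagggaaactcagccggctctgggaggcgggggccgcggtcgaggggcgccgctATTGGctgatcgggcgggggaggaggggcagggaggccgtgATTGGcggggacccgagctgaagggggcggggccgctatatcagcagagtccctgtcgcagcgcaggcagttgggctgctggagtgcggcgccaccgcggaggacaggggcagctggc
SORT1: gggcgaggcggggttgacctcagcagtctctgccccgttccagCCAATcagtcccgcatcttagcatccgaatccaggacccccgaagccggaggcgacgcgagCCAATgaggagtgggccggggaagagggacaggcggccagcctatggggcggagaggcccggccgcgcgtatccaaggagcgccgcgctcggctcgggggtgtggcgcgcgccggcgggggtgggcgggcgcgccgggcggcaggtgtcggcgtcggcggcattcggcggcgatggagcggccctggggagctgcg
VLDLR: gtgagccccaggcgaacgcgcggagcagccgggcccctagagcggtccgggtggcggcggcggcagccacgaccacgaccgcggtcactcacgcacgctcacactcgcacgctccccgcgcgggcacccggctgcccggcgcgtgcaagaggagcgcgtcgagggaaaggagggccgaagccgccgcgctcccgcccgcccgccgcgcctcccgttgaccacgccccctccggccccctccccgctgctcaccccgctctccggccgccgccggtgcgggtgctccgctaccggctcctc

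The MYLIP window held CCAAT 2 times, both on the opposite strand, 109 and 68 bases before the start. The SORT1 window held it 2 times, 207 and 146 bases before the start, and the VLDLR and LRP1 windows held it 0 times. A further SORT1 window, not at the gene start, held it 0 times. The gene-start windows of MYLIP, SORT1, VLDLR and LRP1 also held GGGCGG on either strand, 3, 3, 2 and 1 times, and ACGTG 0 times. Among 35116 such windows, 34.6% held CCAAT on either strand and 10.8% held it at least 2 times, while 45.0% held GGGCGG. The windows were rich in G and C, at 73.67% for MYLIP, 74.67% for SORT1 and 79.0% for VLDLR. These matches describe the letters in the window and say nothing of a factor bound there.

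The probe sets of human SCARB1 gave different accounts, so its 2 bright ones are set side by side for levels, lines, times and siRNAs; the tests of siRNA by line, of siRNA groups and of likeness give the brightest alone. The brightest SCARB1 probe set averaged 10.42 ± 0.104 (SD, n = 32 arrays) in HUH7 and 10.93 ± 0.222 (SD, n = 24) in PLC/PRF/5. The second averaged 10.53 ± 0.140 and 10.22 ± 0.0959, so the lines stood in the opposite order. The name of the brightest ends in _x_at and that of the second in _at, and which is more specific to SCARB1 was not tested. Across the 56 human arrays, which share 2 lines and the same treatments, the Pearson correlation of the 2 probe sets was -0.595, and it was -0.0852 within HUH7 and 0.541 within PLC/PRF/5. The second probe set correlated with the brightest at 0.983 for human MYLIP, 0.976 for mouse Lrp1 and 0.946 for mouse Vldlr. For human SORT1 the correlation was -0.214, and its second probe set was dim, between 2.68 and 2.83 on average at the 4 times in HUH7.

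**Figure D1:**
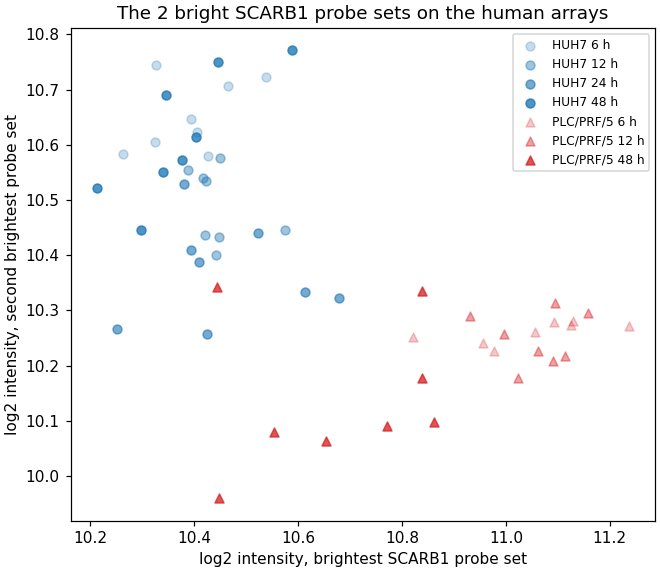
Level of human SCARB1 (log2 intensity) by its brightest probe set (horizontal axis) and its second brightest (vertical axis), with 1 point per array, circles for HUH7, triangles for PLC/PRF/5 and darker points for later times. The brightest probe set is higher in PLC/PRF/5 (10.93) than in HUH7 (10.42), whereas the second is lower in PLC/PRF/5 (10.22) than in HUH7 (10.53).

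The human lines were compared first, to show how much of this receptor machinery each expressed. MYLIP, VLDLR and LRP1 were higher in HUH7 than in PLC/PRF/5, and SORT1 differed by 0.01. The fit used the 24 arrays of each line at 6, 12 and 48 h. At 6, 12 and 48 h MYLIP ranged from 7.22 to 8.22 in HUH7 and from 5.80 to 6.35 in PLC/PRF/5, so no array of either line reached the range of the other. The fitted difference was 1.58 (SE 0.0540, 3.00-fold, adjusted p = 8.87e-22 by limma). In the order of genes within each line, the MYLIP mean stood at the 60.4th percentile in HUH7 and the 43.15th in PLC/PRF/5.

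VLDLR ranged from 4.85 to 6.28 over all 32 HUH7 arrays, with a median of 5.35, and from 3.11 to 3.78 in PLC/PRF/5, with a median of 3.47. The ranges did not meet, and VLDLR was 1.90 higher in HUH7 (SE 0.0615, limma adjusted p = 2.38e-22). In PLC/PRF/5 its mean was at the 11.66th percentile of all genes, near the lowest intensities, against the 36.5th in HUH7. With log2(intensity + 16), which damps dim values, the difference was 1.08 for VLDLR and 1.38 for MYLIP, so the order of these 2 genes depends on the scale.

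LRP1 lay between 7.16 and 7.87 over all 32 HUH7 arrays (median 7.47) and between 6.77 and 7.20 in PLC/PRF/5 (median 7.0). Only the edges of the ranges touched, and the difference was 0.54 (SE 0.0413, 1.45-fold, limma adjusted p = 5.07e-13). SORT1 averaged 8.75 ± 0.0853 (SD, n = 24) in PLC/PRF/5 and differed by 0.01 in HUH7 (limma adjusted p = 0.698, 95% interval -0.04 to 0.06). SCARB1 differed by -0.52 with its brightest probe set (SE 0.0438, limma adjusted p = 3.92e-12), by +0.37 with the second (4.19e-14) and by -0.03 with the mean of all its probe sets (0.416). The direction of the SCARB1 difference therefore rests on the probe set chosen.

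By this test, 4 of the 5 genes differed between the lines, 3 higher and 1 lower in HUH7; the 1 was SCARB1, which was higher with its second probe set. The lines differed broadly: 84.9% of the 17837 human genes passed, 36.1% higher and 48.9% lower in HUH7, with a median difference of -0.07 over all genes. Line and culture cannot be told apart, since each line had 1 array per treatment and time. With the mock arrays alone the same 4 genes passed.

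**Figure D2:**
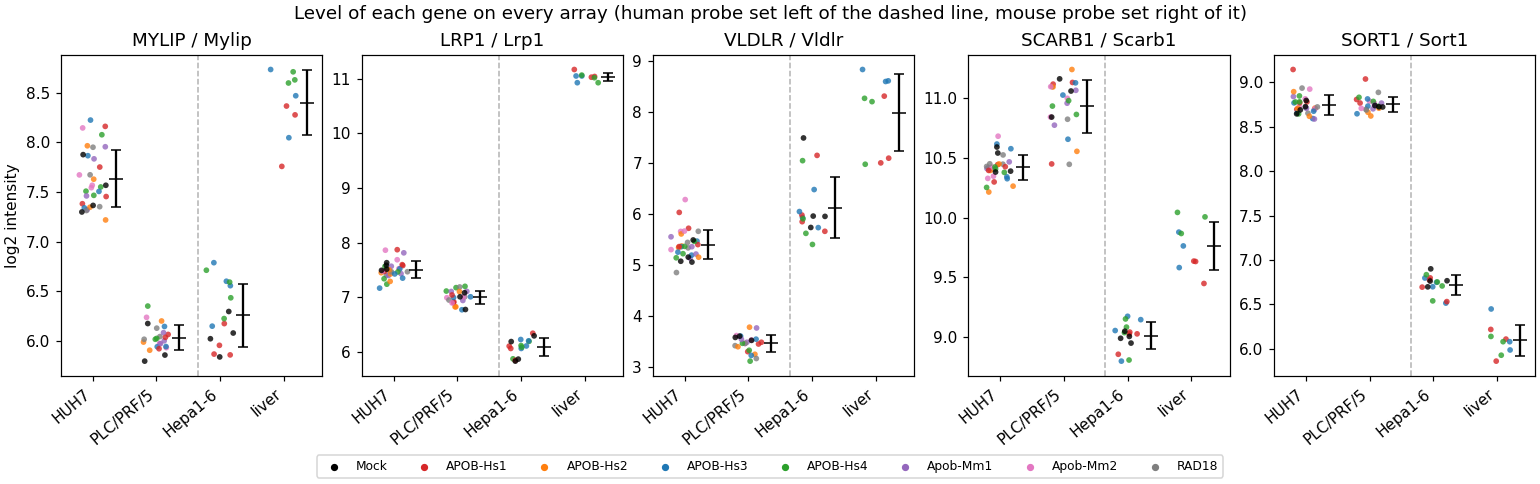
Level of each gene (log2 intensity, vertical axis) in every array of HUH7, PLC/PRF/5, Hepa1-6 and mouse liver, with the mean and SD as bars and a dashed line between the human and the mouse arrays. MYLIP and VLDLR separate the human lines, and Lrp1 in liver lies near 11.03, far above Hepa1-6 at 6.08; levels on human and mouse arrays are not comparable.

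Hepa1-6 cells were then set against mouse liver. The receptors Lrp1, Vldlr and Scarb1 and the ligase Mylip were lower in the tumour line, and Sort1 was the one member that was higher. The fit used the 12 Hepa1-6 arrays given an siRNA and the 9 livers, with siRNA as a factor, and the Hepa1-6 ranges below cover all 16 arrays, mock included. Lrp1 ranged from 10.93 to 11.17 in the 9 livers, with a median of 11.04, and from 5.83 to 6.34 in the 16 Hepa1-6 arrays, with a median of 6.10. The groups were far apart and the spread within each was small, 0.0733 (SD) in liver and 0.160 in Hepa1-6. Lrp1 differed by -4.94 (SE 0.0558, 30.6-fold lower in Hepa1-6, limma adjusted p = 8.01e-29), or by -3.47 with the mean of its 2 probe sets. In liver its mean was at the 96.88th percentile of all genes.

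Mylip was between 5.84 and 6.79 in Hepa1-6 and between 7.76 and 8.73 in liver, with no overlap, and differed by -2.07 (SE 0.0957, limma adjusted p = 3.23e-16). Vldlr lay between 5.40 and 7.48 in Hepa1-6 and between 6.97 and 8.82 in liver, so its ranges overlapped. The Vldlr difference was -1.92 over all times (SE 0.244, limma adjusted p = 1.07e-07) and -1.10 with the 48 h arrays alone (0.00982), the time at which Hepa1-6 had most Vldlr. Scarb1 was between 8.80 and 9.18 in Hepa1-6 and between 9.45 and 10.04 in liver, and differed by -0.74 (SE 0.0653, limma adjusted p = 1.46e-10), or by -1.31 after quantile normalization (5.66e-16).

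Sort1 lay between 6.52 and 6.90 in Hepa1-6 and between 5.86 and 6.45 in liver. All 16 Hepa1-6 arrays were above all 9 livers, and the difference was 0.60 (SE 0.0642, limma adjusted p = 4.83e-09), or 0.31 after quantile normalization (5.01e-05). In all, 4 of the 5 genes were lower and 1 was higher in Hepa1-6. Of the 21931 mouse genes 83.5% passed, 26.9% lower and 56.5% higher, with a median of 0.23 over all genes.

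Fewer cells of a type and less RNA per cell cannot be told apart in such bulk samples, and liver holds several cell types. The summed intensity of 7 endothelial markers ran from 2175 to 3416 in liver and from 97.03 to 121.9 in Hepa1-6, and all 7 were lower in Hepa1-6 (median difference -4.99). For 7 Kupffer cell markers the sums were 1001 to 2225 and 161.2 to 209.3, with 6 lower and 1 higher. For 7 stellate cell markers 5 were lower and 1 higher, although their sum was larger in Hepa1-6 (14540 to 16010 against 6636 to 9591). The 10 hepatocyte markers were all lower in Hepa1-6, by a median of -9.06. Their part in the differences of the 5 genes was not tested.

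Among other genes of lipoprotein uptake, 24 further receptors and partners were on the mouse array, of which 13 were lower and 9 higher in Hepa1-6 (median -0.40). Cd36, a fatty acid and scavenger receptor, differed by -7.08, Stab2, a scavenger receptor of liver endothelium, by -6.03 and Pdzk1, the adaptor that holds SR-BI at the hepatocyte surface in mice, by -5.24. Lrp11 stood the other way at 5.21. Of 15 LXR pathway genes, a list that also held ubiquitin enzyme genes such as Ube2d2, 9 were lower and 5 higher (median -0.82). The largest differences were those of the sterol exporters Abcg5 (-7.62) and Abcg8 (-3.49), the LXR alpha gene Nr1h3 (-4.03) and its partner Rxra (-2.85). Clathrin endocytosis genes went mostly the other way, with 18 of 26 higher and 6 lower, although Dab2, an adaptor for LDL receptor family tails, was at -4.24. Of 27 sorting and recycling genes 21 were higher and 5 lower, a direction that 56.5% of all genes shared.

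Whether the siRNAs altered these genes was tested against mock within each line. In Hepa1-6, Mylip rose with APOB-Hs3 and with APOB-Hs4 and gave no call with APOB-Hs1. With mock it was at 5.84, 6.02, 6.08 and 6.30 at 6, 12, 24 and 48 h. With APOB-Hs3 it was at 6.15, 6.60, 6.79 and 6.56, and with APOB-Hs4 at 6.22, 6.59, 6.71 and 6.43, both above mock at every time. With APOB-Hs1 it was at 5.87, 6.17, 5.96 and 5.86, above mock at the earlier pair of times and below it at the later pair.

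The fitted differences for Mylip were 0.46 with APOB-Hs3 (SE 0.0959, 95% interval 0.26 to 0.67, limma adjusted p = 0.042), 0.43 with APOB-Hs4 (95% interval 0.23 to 0.64, 0.0438) and -0.10 with APOB-Hs1 (0.755). These were the 2 calls among 20 tests of the 5 genes in Hepa1-6, where 0.766%, 0.588% and 1.19% of all genes passed with APOB-Hs1, APOB-Hs3 and APOB-Hs4 and 0.0365% with the mean of the 3. Only 0.0456% of genes rose with APOB-Hs3 and 0.511% with APOB-Hs4. Both calls lay close to the threshold and were lost in each fit that left out 1 time, with differences of 0.36 to 0.53 and adjusted p-values of 0.0606 to 0.464.

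Set against each other, the siRNAs also differed in Mylip. APOB-Hs1 minus APOB-Hs3 was -0.56 (limma adjusted p = 0.00507) and APOB-Hs1 minus APOB-Hs4 was -0.53 (0.0064), while APOB-Hs3 minus APOB-Hs4 was 0.03 (0.919, 95% interval -0.17 to 0.24). These pairs share arrays, and they were compared after the values against mock had been seen. Of 15 such tests over the 5 genes, these were the 2 that passed. The background was 2.43%, 4.67% and 2.79% of genes for the 3 pairs, and 1.08% and 2.39% for lower calls in the first pair and the second. Without the 24 h arrays both calls were lost, at -0.47 (0.098) and -0.45 (0.093). In the 3 pairs, in the order given, Vldlr differed by 0.11, 0.17 and 0.05, Lrp1 by -0.06, 0.02 and 0.08, Scarb1 by -0.06, -0.03 and 0.02, and Sort1 by 0.01, -0.01 and -0.02 (lowest limma adjusted p = 0.586).

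Vldlr, Lrp1, Scarb1 and Sort1 did not pass against mock with any siRNA in Hepa1-6. Against mock, Vldlr differed by -0.13 (APOB-Hs1), -0.24 (APOB-Hs3) and -0.29 (APOB-Hs4) (SE 0.148, lowest adjusted p = 0.392 by limma). Scarb1 differed by -0.01 to 0.04 and Sort1 by -0.09 to -0.07.

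The 3 siRNAs were also given to mice, and the livers were compared with one another because none was untreated. Mylip was at 8.28, 7.76 and 8.36 in the livers given APOB-Hs1, at 8.73, 8.05 and 8.47 with APOB-Hs3 and at 8.71, 8.63 and 8.60 with APOB-Hs4. Every liver given APOB-Hs1 was below every liver given APOB-Hs4, and those given APOB-Hs3 overlapped both. The differences did not pass: APOB-Hs1 minus APOB-Hs4 was -0.51 (limma adjusted p = 0.263, 95% interval -0.91 to -0.11), APOB-Hs1 minus APOB-Hs3 was -0.28 (0.586) and APOB-Hs3 minus APOB-Hs4 was -0.23 (0.847).

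Vldlr was at 7.09, 8.30 and 7.0 with APOB-Hs1, at 8.59, 8.60 and 8.82 with APOB-Hs3 and at 6.97, 8.19 and 8.26 with APOB-Hs4. The livers given APOB-Hs3 were all above the other 6, but 1 liver of APOB-Hs1 and 2 of APOB-Hs4 lay just below them. APOB-Hs1 minus APOB-Hs3 was -1.21 (SE 0.368, limma adjusted p = 0.29). Scarb1 was at 9.45, 9.63 and 9.64 with APOB-Hs1, 9.58, 9.88 and 9.76 with APOB-Hs3, and 9.87, 10.01 and 10.04 with APOB-Hs4. The livers given APOB-Hs1 and APOB-Hs4 did not overlap, and their difference of -0.40 (SE 0.101) had the lowest adjusted p among the 5 genes in liver, 0.117 by limma.

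Lrp1 barely moved in liver: it was at 11.04, 11.17 and 11.03 with APOB-Hs1, at 11.05, 11.05 and 10.93 with APOB-Hs3 and at 11.02, 11.07 and 10.93 with APOB-Hs4. Sort1 was at 6.11, 5.86 and 6.22, at 6.45, 6.08 and 5.99, and at 5.93, 6.14 and 6.08 in the same order, and all 3 groups overlapped in both genes. None of 30 limma tests of the 5 genes passed in liver and 11 had an unadjusted p under 0.05. The tests of each gene reuse the same livers, so they are not independent. The share of all genes with such an unadjusted p is not given here, so the 11 are not read as a trait of these genes. Few genes passed at all: 0.0775% for APOB-Hs1 minus APOB-Hs3, 0.565% for APOB-Hs1 minus APOB-Hs4 and 0.0866% for APOB-Hs3 minus APOB-Hs4, and 0.328%, 0.0182% and 0.21% for APOB-Hs1, APOB-Hs3 and APOB-Hs4 each against the other 2. With APOB-Hs1, APOB-Hs3 and APOB-Hs4, the sums of 5 lymphocyte markers ran from 392.6 to 444.7, 368.2 to 474.5 and 489.4 to 496.0, so the livers given APOB-Hs4 were above the others. For 7 Kupffer cell markers they ran from 1001 to 1689, 1444 to 2225 and 1250 to 1418, with APOB-Hs3 above APOB-Hs4, and for 7 endothelial markers from 2175 to 3099, 2238 to 3416 and 2831 to 3293, which overlapped. Their part in the values of the 5 genes was not tested.

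**Figure D3:**
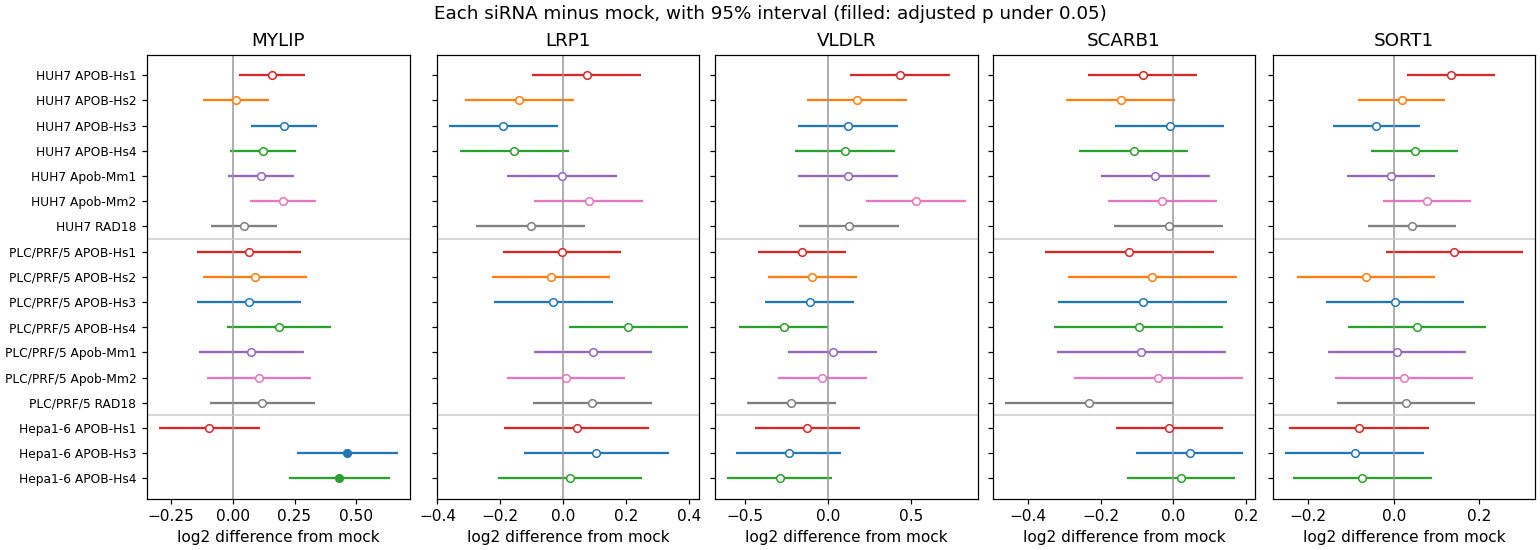
Difference from mock (log2 units, horizontal axis) of each gene with each siRNA in HUH7, PLC/PRF/5 and Hepa1-6, with its 95% interval; filled points have an adjusted p under 0.05. The 2 filled points are Mylip in Hepa1-6 with APOB-Hs3 (0.46) and APOB-Hs4 (0.43).

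In the human lines no member passed against mock. In HUH7, 0 of 40 limma tests passed, over 7 siRNAs and their mean, and 9 had an unadjusted p under 0.05. Of all 17837 genes, 2257 had such an unadjusted p with APOB-Hs1, 2542 with APOB-Hs2 and 2496 with APOB-Hs3. The share of all genes called was 2.53%, 2.42%, 2.22% and 1.63% with APOB-Hs1 to APOB-Hs4, 0% and 1.29% with Apob-Mm1 and Apob-Mm2, 0.897% with the RAD18 siRNA and 0.207% for the mean. In PLC/PRF/5, 0 of 40 passed and 1 had an unadjusted p under 0.05, with 0.6%, 0.37%, 0.292%, 0.202%, 0%, 0.135% and 0.235% of genes called in the same order and 0.00561% for the mean. At such low shares a count of 0 among 5 genes is near the background.

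VLDLR came closest in HUH7. At 6, 12, 24 and 48 h it was at 5.05, 5.07, 5.15 and 5.49 with mock, at 5.30, 5.66, 5.65 and 6.28 with Apob-Mm2 and at 5.36, 5.39, 5.71 and 6.03 with APOB-Hs1. Both siRNAs were above mock at 4 of 4 times. The difference was 0.53 with Apob-Mm2 (SE 0.147, limma adjusted p = 0.0706) and 0.43 with APOB-Hs1 (0.139). Averaged over times, VLDLR differed from mock by 0.10 to 0.53 over the 7 siRNAs in HUH7, against -0.27 to 0.03 in PLC/PRF/5. At 48 h in HUH7, however, the siRNAs other than Apob-Mm2 and APOB-Hs1 were below mock, by -0.36 to -0.02. All 7 siRNA by line differences for VLDLR were positive, from 0.06 to 0.57, and none passed (lowest limma adjusted p = 0.797).

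Averaged over times, MYLIP was above mock with all 7 siRNAs in both lines, with differences of 0.01 to 0.21 in HUH7 (SE 0.0652, lowest limma adjusted p = 0.0981) and 0.06 to 0.19 in PLC/PRF/5. This did not hold at every single time: at 6 h in PLC/PRF/5 all 7 were below mock, by -0.27 to -0.15. At 12 h in HUH7 4 of 7 were below it. Later in PLC/PRF/5 all 7 were above mock, with differences of 0.08 to 0.21 (12 h) and 0.24 to 0.55 (48 h). All 7 were also above it at 48 h in HUH7, the smallest difference being 0.07 and the largest 0.35. Whether the difference from mock changed with time was not tested. Each set of differences shares its mock arrays. The brightest SCARB1 probe set, also averaged over times, was below mock with all 7 in both lines, by -0.14 to -0.01 in HUH7 and -0.23 to -0.04 in PLC/PRF/5. This too did not hold at every single time: at 12 h in HUH7 all 7 were above mock, by 0.03 to 0.19. At 6 h and at 48 h in HUH7 all 7 were below it. With the second probe set the differences were -0.21 to -0.06 in HUH7, where that of APOB-Hs1, -0.21, passed (0.0297 by limma), and -0.14 to 0.01 in PLC/PRF/5. LRP1 differed by -0.19 to 0.08 in HUH7, and its 0.21 with APOB-Hs4 had the lowest limma adjusted p in PLC/PRF/5, 0.468. SORT1 lay between -0.06 and 0.14 of mock in both lines.

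Across 35 tests of whether an siRNA acted differently in HUH7 and PLC/PRF/5, 0 passed by limma, 3 had an unadjusted p under 0.05 and the lowest adjusted p was 0.688. In these tests 0%, 0.00561% or 0.0112% of genes passed. The 4 siRNAs named for human APOB did not differ as a group from the other 3 in any of the 5 genes in HUH7 (0 calls and 0 unadjusted p under 0.05 by limma, lowest adjusted p = 0.303, background 3.89%) or in PLC/PRF/5 (0 and 0, 0.702, 0.392%). These other 3 are no group with unaltered APOB: Apob-Mm1 and Apob-Mm2 gave APOB differences from mock of -1.27 and -0.81 in HUH7 (limma adjusted p = 0.191 and 0.14) and of -2.44 and -1.82 in PLC/PRF/5 (0.157 and 0.1), which did not pass.

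Other genes of the uptake route did change with single siRNAs, and 5 of them did so in both human lines with the same siRNA, relative to each line's own mock. The lists held 23 receptor, 14 LXR pathway, 26 clathrin and 33 sorting genes on the human array, each tested with 7 siRNAs. Per siRNA, 0% to 2.53% of all genes passed in HUH7 and 0% to 0.6% in PLC/PRF/5. The share of all genes called in both lines was not computed, so the 5 are not read as a trait of this route. PICALM, which recruits clathrin to membranes, fell with APOB-Hs3 by 0.47 in HUH7 (limma adjusted p = 0.00463) and by 0.59 in PLC/PRF/5 (0.0359). VPS26B, a subunit of the retromer that returns cargo from endosomes, fell with APOB-Hs3 by 0.52 (0.00708) and 0.79 (0.023). SNX5, a sorting nexin that works with retromer, fell with APOB-Hs2 by 0.70 (0.000105) and 0.98 (0.00315). WASHC4, of the WASH complex that shapes endosomal sorting, fell with APOB-Hs4, at -1.24 (2.13e-05) in HUH7 and -1.83 (4.31e-08) in PLC/PRF/5. The Wnt co-receptor LRP6 fell in both with APOB-Hs1, by 0.35 (0.00596) and 0.47 (0.0251), and its relative LRP5 fell with APOB-Hs1 by 0.59 in HUH7 (0.000531) and by 0.71 in Hepa1-6 (0.000902).

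Counted by list, receptors had 0 to 2 members lower and 0 higher per siRNA in HUH7, 0 to 1 lower and 0 higher in PLC/PRF/5 and Hepa1-6. LXR pathway genes had 0 to 1 lower in HUH7, the 1 being LPCAT3 with APOB-Hs3 (-0.23, limma adjusted p = 0.0288), and 0 in PLC/PRF/5 and Hepa1-6. In Hepa1-6 the mannose 6-phosphate receptor gene M6pr fell by 0.62 with APOB-Hs1 (0.0135). Lrp11, a receptor-like gene of the list, was higher with APOB-Hs1 than with APOB-Hs4 in liver (0.65, 0.0392) and in Hepa1-6 (0.61, 0.00154).

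Times after transfection were compared across treatments. In HUH7, MYLIP rose late in all 8 treatments, mock included. Its lowest, median and highest levels over the 8 treatments were 7.22, 7.46 and 7.57 at 6 h, 7.31, 7.35 and 7.54 at 12 h, 7.55, 7.67 and 7.86 at 24 h, and 7.88, 8.02 and 8.22 at 48 h. Every array at 48 h was above every array at 6, 12 and 24 h. The rise was 0.65 from 12 to 48 h (SE 0.0461, limma adjusted p = 4.35e-11) and 0.63 from 6 to 48 h (5.68e-11), with 0.51 and 0.58 in the mock arrays, whereas 12 h and 6 h differed by -0.03 (0.747).

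SORT1 rose less. Its lowest, median and highest levels in HUH7 were 8.67, 8.72 and 8.81 at 6 h, 8.59, 8.65 and 8.72 at 12 h, 8.59, 8.70 and 8.78 at 24 h and 8.77, 8.87 and 9.14 at 48 h. The top value came from APOB-Hs1, and the 48 h arrays overlapped those at 6 and 24 h only at the edge. SORT1 rose by 0.23 from 12 to 48 h (SE 0.0351, limma adjusted p = 9.18e-06) and by 0.15 from 6 to 48 h (0.00114), in 8 of 8 treatments both times. With the dim second probe set averaged in, neither passed (0.04, adjusted p = 0.41, and 0.03).

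VLDLR in HUH7 was at 4.85, 5.23 and 5.46 at 6 h, 5.07, 5.37 and 5.66 at 12 h, 5.15, 5.48 and 5.71 at 24 h and 5.13, 5.42 and 6.28 at 48 h, again as lowest, median and highest. The times overlapped widely, and the late spread came mainly from Apob-Mm2 and APOB-Hs1. The rise from 6 to 48 h was 0.32 (SE 0.104, limma adjusted p = 0.0182), in 6 of 8 treatments. In total 5 of 15 tests of the 5 genes over time passed in HUH7, all rises, where 18.6% of all genes passed for 12 against 6 h, 34.7% for 48 against 12 h (19.2% rises) and 29.5% for 48 against 6 h (16.5% rises).

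**Figure D4:**
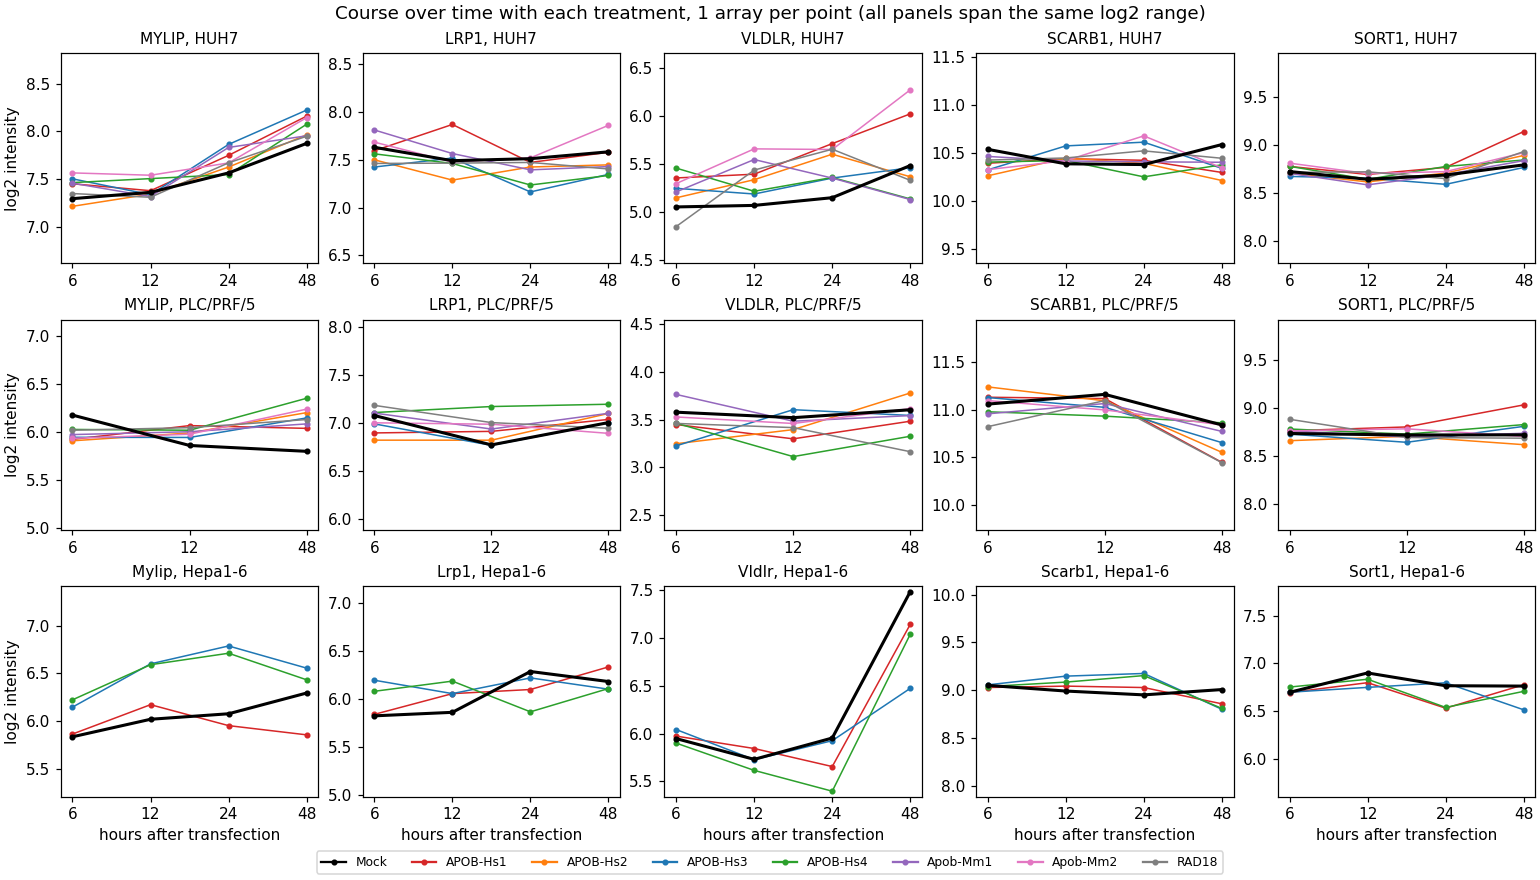
Level of each gene (log2 intensity, vertical axis, every panel spanning 2.2 units) at each time after transfection (horizontal axis, hours, evenly spaced and not to scale) in HUH7, PLC/PRF/5 and Hepa1-6, with 1 line per treatment. MYLIP rises at 48 h in all 8 HUH7 treatments and Vldlr in all 4 Hepa1-6 treatments.

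In PLC/PRF/5 MYLIP did not pass over time, and the difference in its course between the lines was not tested. Its lowest, median and highest levels were 5.91, 5.96 and 6.17 at 6 h, 5.86, 5.99 and 6.06 at 12 h and 5.80, 6.14 and 6.35 at 48 h. From 6 to 48 h the difference was 0.14 (limma adjusted p = 0.146), positive in 7 of 8 treatments, with mock the exception at 6.17 and 5.80. From 12 to 48 h the difference was also 0.14 (0.162), and with the mean of both probe sets it was 0.21 and passed (0.0185).

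The calls in PLC/PRF/5 were for SCARB1 with its brightest probe set. It was at 10.82, 11.08 and 11.24 at 6 h, 10.93, 11.08 and 11.16 at 12 h and 10.44, 10.71 and 10.86 at 48 h. All 48 h arrays were below all 12 h arrays, and the fall was 0.38 (SE 0.0682, limma adjusted p = 0.000912). From 6 h the difference was -0.37 (0.000668), again in 8 of 8 treatments. The second probe set gave -0.11 (0.147) and -0.12 (0.0867), which did not pass. These were 2 of 15 tests, with 3.5%, 13.0% and 18.7% of all genes passing for 12 against 6 h, 48 against 12 h and 48 against 6 h, and 7.15% and 6.64% falling in the last pair of comparisons. In HUH7 the brightest probe set gave no call over time, whereas the second fell by 0.16 from 6 to 12 h (0.00315) and rose by 0.12 from 12 to 48 h (0.0118).

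Vldlr was the member that rose in Hepa1-6. It was at 5.95, 5.73, 5.95 and 7.48 with mock at 6, 12, 24 and 48 h, at 5.97, 5.84, 5.66 and 7.14 with APOB-Hs1, at 6.04, 5.73, 5.93 and 6.47 with APOB-Hs3 and at 5.90, 5.62, 5.40 and 7.04 with APOB-Hs4. All 4 arrays at 48 h were above all 12 earlier arrays, with mock the highest. The rise was 1.31 from 12 to 48 h (SE 0.148, limma adjusted p = 3.65e-05) and 1.07 from 6 to 48 h (0.000152).

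Mylip in Hepa1-6 was 0.27 higher at 48 h than at 6 h (limma adjusted p = 0.0731) and differed by -0.06 between 48 and 12 h (0.773). Scarb1 differed by -0.20 and -0.17 between 48 h and 12 or 6 h (0.0827 and 0.105). The 2 Vldlr results were those that passed of 15, where 0.775%, 11.7% and 17.2% of all genes passed for 12 against 6 h, 48 against 12 h and 48 against 6 h, and 5.13% and 8.71% rose in the last pair of comparisons. Sort1 differed by 0.11 from 6 to 12 h, -0.13 from 12 to 48 h and -0.02 from 6 to 48 h (lowest limma adjusted p = 0.342). LRP1 did not pass over time in any line: over these intervals it differed by -0.07, -0.02 and -0.09 in HUH7 (lowest limma adjusted p = 0.324), by -0.10, 0.11 and 0.01 in PLC/PRF/5 (0.191), and Lrp1 by 0.06, 0.14 and 0.20 in Hepa1-6 (0.261). In PLC/PRF/5, SORT1 differed by -0.04, 0.05 and 0.01 (lowest limma adjusted p = 0.575) and VLDLR by -0.05, 0.10 and 0.04 (0.462).

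Because the gene for MYLIP is an LXR target, other LXR pathway genes were read over the same times. The list also held ubiquitin enzyme genes, UBE2D2, UBE2D4 and USP2 among them, so its counts are not counts of LXR targets alone. In HUH7, 7 of 14 rose and 2 fell from 12 to 48 h (median 0.15, against -0.02 over all genes), and 6 rose and 0 fell from 6 to 48 h (median 0.13), where 19.2% and 16.5% of all genes rose. ABCA1, the exporter that loads cholesterol onto apolipoprotein A-I, rose by 0.85 (limma adjusted p = 5.59e-11) and 0.50 in these comparisons. SREBF1, the gene of the lipogenic factor SREBP-1 and an LXR target, rose by 0.73 (7.11e-11) and 0.55. The LXR alpha gene NR1H3 rose by 0.43 in both and its partner RXRA by 0.35 and 0.36, while the sterol exporter ABCG5 fell by 0.21 from 12 to 48 h. From 6 to 12 h, however, 3 of 14 fell and 2 rose, where 18.6% of all genes passed in either direction. ABCA1 (-0.36, limma adjusted p = 0.000142) and SREBF1 (-0.19, 0.0144) were among those that fell, while MYLIP did not pass.

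In PLC/PRF/5, 1 of 14 rose from 12 to 48 h, SREBF1 by 0.32 (limma adjusted p = 0.000252). From 6 to 48 h 3 rose, NR1H2 by 0.42, SREBF1 by 0.30 and the ubiquitin enzyme gene UBE2D4 by 0.17. In these comparisons 13.0% and 18.7% of all genes passed in either direction. In Hepa1-6, 3 of 15 rose from 12 to 48 h, Abca1 by 1.47, Abcg1 by 0.75 and Srebf1 by 0.69. From 6 to 48 h 5 rose and 2 fell, with Ube2d2 (-0.29) among those that fell. Of all genes, 5.13% and 8.71% rose over these intervals. Differences between the lines in this list were not tested. Abca1 rose by 2.03 over the longer interval (8.64e-08), while Mylip did not pass. Time after transfection and time in culture cannot be told apart.

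**Figure D5:**
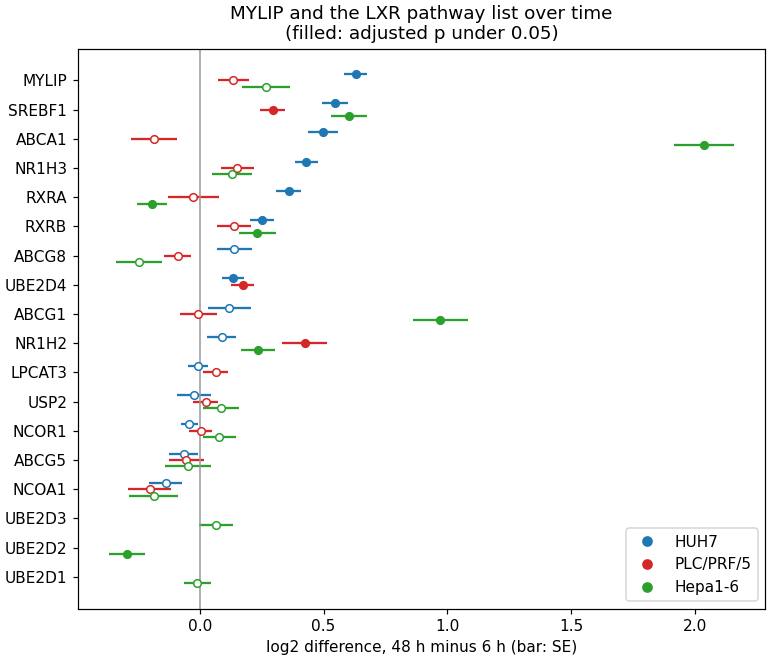
Difference between 48 h and 6 h (log2 units, horizontal axis) of MYLIP and the LXR pathway genes in HUH7, PLC/PRF/5 and Hepa1-6, with the SE as a bar; filled points have an adjusted p under 0.05. In HUH7 MYLIP rises by 0.63 beside SREBF1 (0.55) and ABCA1 (0.50), and in Hepa1-6 Abca1 rises by 2.03 without a call for Mylip.

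Finally, the genes most like each member were found by Pearson correlation over the 56 human or 25 mouse arrays, after subtracting the mean of the same line and time, or of all livers, and among genes above the median level. These are descriptions with no test, and the arrays share treatments and processing. Human MYLIP was most like UNC45A (0.59), FANCF (0.58) and ZNF416 (0.56). Human LRP1 was most like PACS1 (0.58), VLDLR was most like CRTAP (0.65) and ERBB2 (0.64), SCARB1, by its brightest probe set, was most like NME2 (0.82), and SORT1 was most like TMEM200A (0.77), CHST13 (0.70) and the lysosomal lipase gene LIPA (0.67).

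In mouse, Mylip was most like Rhebl1 (0.87), Cd68 (0.87) and Snrpb (0.86). Lrp1 was most like D630039A03Rik (0.73), Vldlr like Stambp (0.85), Scarb1 like Pygl (0.84) and Sort1 like 1110006O17Rik (0.80).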

How the data were processed

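The authors deposited a linear intensity per probe set, summarised with RMA per the submitters' processing notes; the sources used here give no version of it. The deposited intensities were put on a log2 scale, and no further normalization was applied. A single gene symbol was found in the platform annotation for 25919 of 43483 human and 30342 of 43681 mouse probe sets; the rest were not used. Each gene was its brightest probe set over all arrays of its platform, which left 17837 human and 21931 mouse genes.

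Differences were fitted over all genes with limma 3.58.1 in R 4.3.3 (with the data.table package, 1.17.8), with treatment and time as factors in the lines and siRNA as the factor in liver and between Hepa1-6 and liver. P-values were two-sided and adjusted by Benjamini-Hochberg within each contrast, with a threshold of 0.05. Intervals are 95% and come from the same fits. The number of arrays limits the precision. The fits were tested on simulated data with known changes.

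The members, the gene lists and the comparisons were chosen with earlier results of these data known. The 5 members are named, and up to 4 genes per list and comparison, taken from those of largest difference past the test. ABCG5 over time in HUH7 is named besides these. The correlates are the 3 highest per member, of which the text gives the leading ones. The settings varied were normalization (quantile), averaging a gene's probe sets, leaving out genes below the median level, log2(intensity + 16), leaving out each time or liver, the RAD18 siRNA as reference and a block for liver number. The second SCARB1 probe set and the siRNA pairs in Hepa1-6 were added after the data were seen.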

Additional observations from a re-analysis of the deposited data

Results flagged for a closer look

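For each treatment in HUH7 and Hepa1-6, the level at each time was set against the mean of all treatments at that time, and 4 of 60 sets of 4 times had 1 array far from the others, all 4 in HUH7; chance alone gives about 1 in 20. SCARB1 (brightest probe set) with APOB-Hs4 stood at -0.21 at 24 h, and its other times lay between -0.02 and 0.01. SCARB1 with Apob-Mm2 stood at 0.22 at 24 h, and its other times lay between -0.07 and -0.02. SORT1 with APOB-Hs1 stood at 0.25 at 48 h, and its other times lay between 0.04 and 0.07. SORT1 with mock stood at -0.10 at 48 h, with its other times near -0.01, and a rise of SORT1 by 48 h was still seen in 8 of 8 treatments.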

How the results depend on the processing

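Of 2211 values of the 5 genes under the alternatives, 2037 were called under neither setting, and 171 of these had the other sign. Some alternatives could not move a difference, such as the second SCARB1 probe set for the other genes, or leaving out 24 h for 48 minus 12 h. In all, 2186 values kept their side of the threshold and, where called, their direction. Of the others, 15 were no longer called, 7 became called and 3 changed direction. The 3 came from the second SCARB1 probe set, which gave -0.16 for 12 minus 6 h and 0.12 for 48 minus 12 h in HUH7, and 0.37 for HUH7 minus PLC/PRF/5. The same probe set took the calls over time in PLC/PRF/5 from 2 to 0 and the siRNA calls in HUH7 from 0 to 1. Without genes below the median level, where human VLDLR drops out, the siRNA calls in HUH7 also went from 0 to 1 (MYLIP with APOB-Hs3, 0.21, limma adjusted p = 0.043), and the calls over time in Hepa1-6 went from 2 to 5, with SCARB1 at -0.20 (0.0309) and -0.17 (0.0423) and MYLIP at 0.27 (0.0367). With the mean of all probe sets the calls over time in HUH7 went from 5 to 3. Leaving out any 1 time in Hepa1-6 took its siRNA calls from 2 to 0, with fewer arrays in the fit. The causes were otherwise not tested. The calls of all 5 genes between Hepa1-6 and liver kept their direction under 8 of 8 alternatives each, with -5.16 to -3.47 for LRP1, -2.54 to -1.87 for MYLIP, -2.54 to -1.10 for VLDLR, -1.31 to -0.70 for SCARB1 and 0.31 to 0.64 for SORT1. MYLIP over time in HUH7 stayed between 0.58 and 0.76. Livers with the same number correlated at -0.14 to 0.19, and 3 of 9 pairs were over 0.1. Livers with different numbers correlated at -0.15 to 0.20, and 2 of 18 pairs were over 0.1. These ranges overlap, so whether the numbers pair the livers cannot be told from them. The fit with the liver number as a replicate block gave 0 calls, as without it. Few arrays and the low level of VLDLR in PLC/PRF/5 limit what small differences could be called.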

Other observations

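Other genes of receptor uptake changed with time in the lines. Of all genes, 29.5% passed in HUH7, 18.7% in PLC/PRF/5 and 17.2% in Hepa1-6 between 6 and 48 h. In HUH7 over this interval, 7 of 23 receptor genes fell and 3 rose. OLR1, a scavenger receptor for oxidised LDL, fell by 1.03 and LRP4 rose by 0.60 (both past the limma threshold). Of 26 clathrin endocytosis genes 6 fell and 0 rose, led by the clathrin light chain gene CLTB, which fell by 0.88, and PICALM, which fell by 0.37. Of 33 sorting and recycling genes 10 rose and 3 fell, with VPS26B at 0.32, GGA2 at 0.31 and M6PR at 0.25 among those that rose. Among those that fell, EHD1 was at -0.42.

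In PLC/PRF/5 from 6 to 48 h, 3 of 23 receptor genes fell and 3 rose; LRP8, the apolipoprotein E receptor that MYLIP also targets, fell by 0.96 and OLR1 by 0.63. Of the clathrin genes 2 fell and 6 rose, with RAB5B at 0.35 and DAB2 at 0.31, and of the sorting genes 4 fell and 5 rose. In Hepa1-6 from 6 to 48 h, 5 of 24 receptor genes rose and 1 fell. Sorl1 rose by 0.41, Lrp6 by 0.40 and Scarb2 by 0.38, while Lrp2 fell by 0.32. The early endosome genes Rab5b and Rab5a rose by 0.49 and 0.47.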
